A study of Mus musculus with 40 samples.

Results

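The genes described here are 40 genes of fatty acid oxidation and targets of PPAR-alpha, the nuclear receptor that senses fatty acids. They were chosen by symbol from a list of this pathway, and all 40 of the 40 were found among the 55401 genes of the count table. They cover the receptor itself, fatty acid uptake and storage, activation and the carnitine shuttle, mitochondrial and peroxisomal beta-oxidation, omega-hydroxylation, acyl-CoA thioesterases and pantetheinase, and ketone body use together with fuel choice. RNA was sequenced from the renal cortex of 40 male C57BL/6J mice, in 8 groups of 5. Akita mice carry a dominant mutation of the insulin gene Ins2 on 1 allele, which makes them diabetic, and WT littermates carry none. In the ethanol arm, WT and Akita mice received a vehicle of 10% ethanol or MitoGamide, a dicarbonyl scavenger directed to mitochondria, at 10 mg/kg. In the water arm, WT and Akita mice received water or MitoQ, an antioxidant directed to mitochondria, for which no dose was given. Treatment, by daily oral gavage in the ethanol arm, started at 6 weeks of age and tissue was taken at 22 weeks. The mutation acts in the pancreatic beta cell and is not visible in kidney counts, so no transcript in these libraries checks the genotype labels. The label of the tissue was checked with 17 proximal tubule markers, whose summed level was 14386 to 34638 CPM, counts scaled to a common library total, in the 40 libraries.

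Fatty acids are the main fuel of the proximal tubule. They enter the cell with the help of CD36, are activated to acyl-CoA, pass the mitochondrial membrane as carnitine esters, and are shortened by the dehydrogenases, hydratases and thiolases of beta-oxidation. PPAR-alpha pairs with a retinoid X receptor and, when it binds a fatty acid, raises transcription of many of these enzymes. The Cyp4a enzymes, which hydroxylate the far end of the fatty acid, and Pdk4, which closes the path from glucose to acetyl-CoA, are among its classic targets. Ketone bodies are made from acetyl-CoA in the liver and burned in kidney, heart and brain through Bdh1, Oxct1 and Acat1.

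Several members are close copies that lie side by side, so the sequences show whose reads can be told apart. Cyp4a14, Cyp4a10 and Cyp4a31 lie within 92.8 kb at chr4:115486200-115579015, and Acot2, Acot1, Acot4 and Acot3 within 72.5 kb at chr12:83987861-84060402 (GRCm38, GENCODE annotation). A stretch of 60 coding bases, taken where Cyp4a10 and Cyp4a31 share their longest identical run of 186 bases, is given for the 3 Cyp4a genes, with bases that differ from Cyp4a10 in capitals.
Cyp4a10: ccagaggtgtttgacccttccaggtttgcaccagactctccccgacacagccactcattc
Cyp4a31: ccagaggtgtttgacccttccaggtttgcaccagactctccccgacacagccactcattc
Cyp4a14: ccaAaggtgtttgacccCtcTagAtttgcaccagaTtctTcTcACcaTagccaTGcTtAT

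Cyp4a14 differed from Cyp4a10 at 15 of these 60 bases, and the longest run that the coding sequences of Cyp4a14 and Cyp4a10 share was 23 bases. Of all 31-base words of the Cyp4a14 transcripts, 1.99% occurred in a transcript of another gene, against 44.9% for Cyp4a10 and 32.0% for Cyp4a31. The partner of Cyp4a10 with most shared words was Cyp4a32, with 36.5%. The counts of Cyp4a10 and Cyp4a31 thus depend on how shared reads were divided between genes, and those of Cyp4a14 hardly do.

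The Acot genes can be read in the same way, at the start of the longest run shared by Acot1 and Acot2, which was 273 bases. Capitals mark bases that differ from Acot1.
Acot1: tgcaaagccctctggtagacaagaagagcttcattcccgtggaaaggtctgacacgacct
Acot2: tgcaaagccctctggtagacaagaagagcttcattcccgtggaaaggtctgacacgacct
Acot3: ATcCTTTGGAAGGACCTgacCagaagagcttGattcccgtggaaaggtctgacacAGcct

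Acot3 differed from Acot1 at 20 of these 60 bases, in the ungapped window that matched best. The share of 31-base words found in another gene was 22.8% for Acot1, 37.8% for Acot2 and 25.2% for Acot3. Outside this window Acot1 and Acot3 shared an identical run of 203 bases, and Acot3 and Acot4 one of 111 bases. Changes of Acot1, Acot2 and Acot3 are thus uncertain as to which of these copies they belong to. Cpt1b shared 79.7% of its words with the overlapping locus Gm44502, Acaa1b 40.01% with Acaa1a, and Acadvl 33.2% with Dvl2, and no word of Cd36, Vnn1, Acat1, Acaa2 or Acads was shared.

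Library totals ran from 9106654 to 24321424 estimated counts. Levels are given as CPM after TMM scaling over all 40 libraries. The 10 most abundant genes held 28.6% to 37.99% of the counts in the ethanol arm and 24.8% to 72.5% in the water arm, and 10 libraries of the water arm, 5 of Akita and 5 of WT mice, exceeded 40%. The highest share was in the library of WT mouse 3 on MitoQ. WT mouse 1 on water stood apart by hepatocyte markers, with a summed level of 466 CPM against at most 67.9 in any other library.

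Divided by exon length, the members spanned a wide range of levels. In WT mice the highest mean level was that of Oxct1 with 187 CPM per kb of exon, followed by the peroxisomal bifunctional enzyme Ehhadh with 145 and Acat1 with 99.1. In Akita mice Cyp4a10 came first with 261 CPM per kb, followed by Cyp4a14 with 181. Cyp4a14 ranked 26 of 40 in WT mice, at 16.8 CPM per kb, and 2 of 40 in Akita mice. The liver fatty acid binding protein Fabp1 was lowest in both, at 1.06 and 0.565 CPM per kb.

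The question of the main comparison was how diabetes altered these genes in renal cortex, over all 4 treatments. Akita mice had higher levels of 16 of the 39 members tested and lower levels of 6, where 22.8% of all 17769 genes tested were called, 10.9% higher and 11.9% lower (edgeR quasi-likelihood test, Benjamini-Hochberg adjusted p below 0.05). The median log2 fold change was 0.26 over the members and -0.024 over all genes. Cyp4a14, Cyp4a10, Acot3 and Pdk4 had the largest log2 fold changes among those that rose, the 3 enzymes of ketone body use all fell, and the acyl-CoA dehydrogenases Acadvl, Acadl and Acadm were not called. All 16 members that rose had a positive log2 fold change under each of the 4 treatments, and all 6 that fell had a negative one. These members were picked by the average of the same 4 differences, so the shared sign is partly built in and is no separate support. Among all members, called or not, 25 were positive under all 4 treatments and 6 negative. These include the 16 and 6 members above, and the same count was not made over all genes. No member separated the 20 Akita from the 20 WT mice without overlap, as 0.236% of all genes did. Because whole cortex was sequenced, fewer cells of a type and less RNA per cell cannot be told apart.

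**Figure D1:**
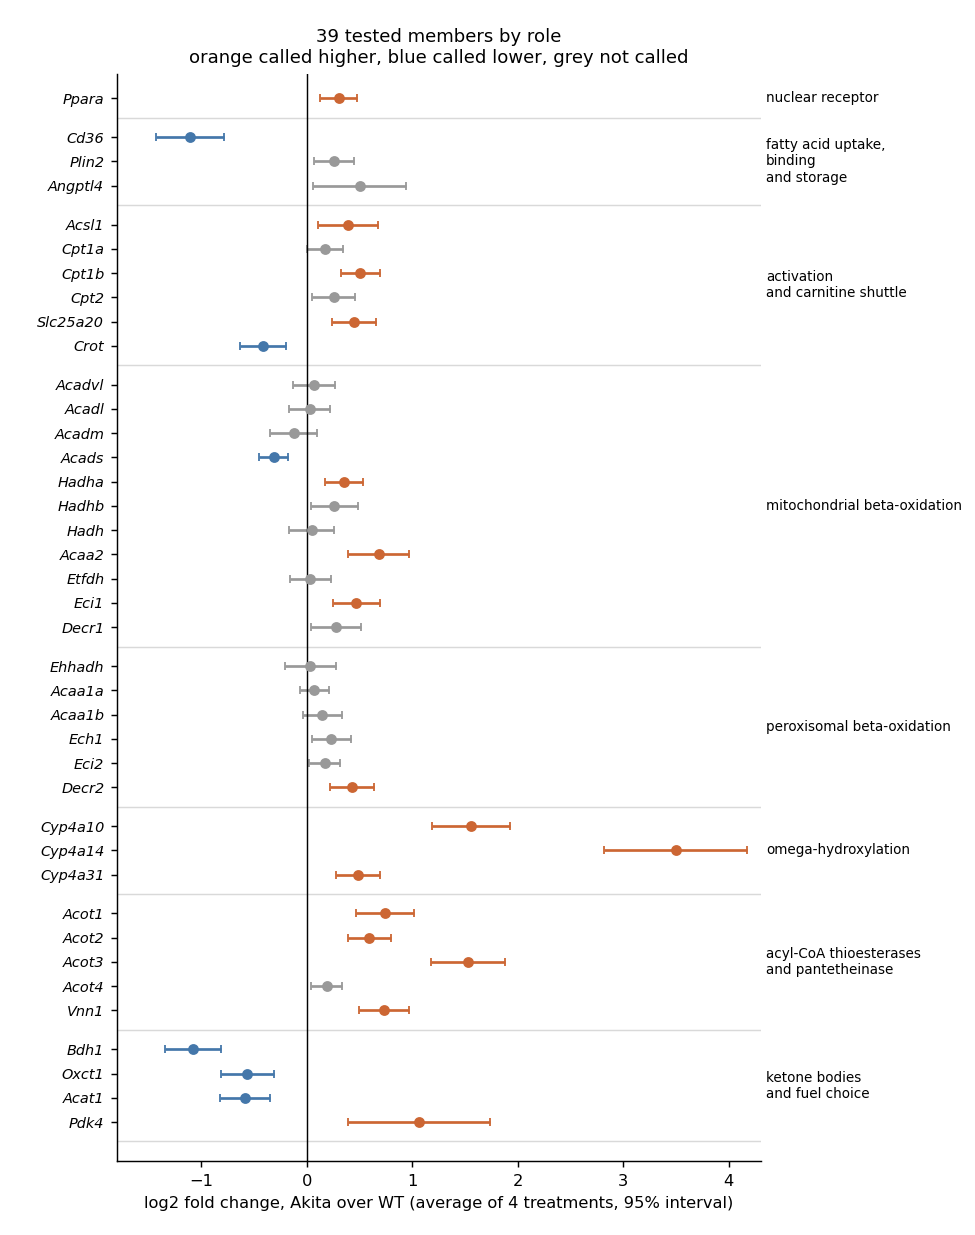
Log2 fold change of 39 members between Akita and WT mice, averaged over 4 treatments of 5 mice per genotype, with 95% intervals and grouped by role. Points for Cyp4a14, Cyp4a10 and Acot3 lie farthest to the right, and those for Cd36 and Bdh1 farthest to the left.

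The receptor Ppara was modestly higher in Akita mice, with a log2 fold change of 0.30 (SE 0.0911, edgeR adjusted p = 0.0134). Under ethanol, Ppara measured 70.5, 72.8, 90.7, 78.1 and 64.99 CPM in the 5 WT mice and 118, 103, 124, 88.3 and 91.9 CPM in the 5 Akita mice. With MitoGamide, Ppara measured 68.3, 79.8, 83.3, 63.3 and 64.4 CPM in WT and 80.8, 84.8, 90.8, 66.3 and 89.4 CPM in Akita mice. In both of these treatments the ranges of WT and Akita mice overlapped. On water, Ppara measured 51.8, 91.2, 45.03, 54.7 and 52.8 CPM in WT and 86.6, 47.1, 49.97, 80.8 and 56.6 CPM in Akita mice. With MitoQ, Ppara measured 57.6, 60.8, 52.1, 58.3 and 56.2 CPM in WT and 90.2, 49.4, 51.1, 99.6 and 86.6 CPM in Akita mice. WT mouse 2 on water had the highest level of all WT mice. Tested by treatment, Ppara was called on ethanol alone, with a log2 fold change of 0.49 (SE 0.108, edgeR adjusted p = 0.00736), and a difference between treatments in the Akita effect was not called.

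Among the omega-hydroxylases, Cyp4a14 rose most of all members, by a factor of 11.3 (log2 fold change 3.49, SE 0.344, edgeR adjusted p = 6.16e-10). Cyp4a14 measured 11.6, 56.5, 71.9, 32.4 and 128 CPM in the 5 WT mice on ethanol and 382, 411, 605, 651 and 361 CPM in the 5 Akita mice. With MitoGamide Cyp4a14 measured 77.9, 71.8, 18.6, 67.8 and 58.95 CPM in WT and 279.8, 537, 507, 403 and 1625 CPM in Akita mice. Every Akita mouse of the ethanol arm exceeded every WT mouse, and Akita mouse 5 on MitoGamide stood far above the rest. On water Cyp4a14 measured 21.5, 53.7, 5.94, 6.89 and 54.6 CPM in WT and 382, 283, 134, 849.6 and 333 CPM in Akita mice. With MitoQ Cyp4a14 measured 15.8, 17.7, 70.5, 24.6 and 7.67 CPM in WT and 224, 108, 139, 851 and 363 CPM in Akita mice. Within each treatment the genotypes did not overlap, although the lowest Akita mouse on MitoQ lay below the highest WT mouse on ethanol. Cyp4a14 was the only member called under all 4 treatments, with log2 fold changes of 3.02 on ethanol, 3.53 on MitoGamide, 3.79 on water and 3.69 on MitoQ. With each of the 10 mice left out in turn, Cyp4a14 kept its call in 10 of 10 fits on ethanol and on MitoGamide, but in 2 of 10 on water and 3 of 10 on MitoQ, with log2 fold changes of at least 3.30 and 3.01 there. With the replicate number as a block, Cyp4a14 was called neither on water nor on MitoQ. Of the 16406 genes tested under all 4, 0.0914% were called higher in each.

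Cyp4a10, another fatty acid omega-hydroxylase, rose by a log2 fold change of 1.55 (SE 0.188, edgeR adjusted p = 5.19e-08). Cyp4a10 measured 125, 226, 354, 236 and 373 CPM in WT mice on ethanol and 404, 431, 685, 663 and 485 CPM in Akita mice. With MitoGamide Cyp4a10 measured 194, 251, 120.4, 168 and 235 CPM in WT and 392, 558, 534, 609 and 1563 CPM in Akita mice. In the ethanol arm no WT mouse reached an Akita mouse of its treatment, and mouse 5 on MitoGamide was again highest. On water Cyp4a10 measured 153, 181, 74.3, 70.1 and 257 CPM in WT and 539, 362, 257, 929 and 353 CPM in Akita mice, with the lowest Akita mouse just above the highest WT mouse. With MitoQ Cyp4a10 measured 132, 154, 176, 172 and 134 CPM in WT and 349.9, 289, 276, 853 and 479 CPM in Akita mice. Cyp4a10 was called under ethanol, MitoGamide and MitoQ, with log2 fold changes of 1.04, 1.94 and 1.55. Its call on MitoQ was kept in 5 of 10 fits without 1 mouse. On water its log2 fold change of 1.73 had an edgeR adjusted p of 0.148. Cyp4a31, the other member of this cluster, rose by 0.48 on the log2 scale (SE 0.107, edgeR adjusted p = 7.15e-04), from 195 ± 53.5 to 271 ± 68.4 CPM (SD, n = 20).

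Acyl-CoA thioesterases split acyl-CoA into free fatty acid and coenzyme A, and 3 of the 4 tested rose, beside 10.9% of all genes. Acot3, a peroxisomal thioesterase, rose by a log2 fold change of 1.53 (SE 0.179, edgeR adjusted p = 2.46e-08). Acot3 measured 9.10, 13.2, 19.2, 11.2 and 15.1 CPM in WT mice on ethanol and 31.2, 22.6, 63.8, 37.3 and 22.5 CPM in Akita mice. With MitoGamide Acot3 measured 10.8, 13.2, 11.6, 12.3 and 16.2 CPM in WT and 21.999, 27.8, 26.5, 36.4 and 33.7 CPM in Akita mice, and neither treatment showed an overlap of genotypes. On water Acot3 measured 9.18, 12.7, 6.36, 6.26 and 14.6 CPM in WT and 40.9, 41.1, 14.6, 59.2 and 33.9 CPM in Akita mice. With MitoQ Acot3 measured 8.29, 11.5, 14.7, 7.29 and 8.52 CPM in WT and 25.1, 12.2, 16.3, 71.4 and 25.2 CPM in Akita mice. Here the lowest Akita mice fell within the range of WT mice, and Akita mouse 4 on MitoQ was the highest of all. Acot3 was called on ethanol, MitoGamide and water, with log2 fold changes of 1.38, 1.22 and 1.94. Its call on water was kept in 2 of 10 fits without 1 mouse. Acot3 was not called on MitoQ, where the value was 1.61 (edgeR adjusted p = 0.140).

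**Figure D2:**
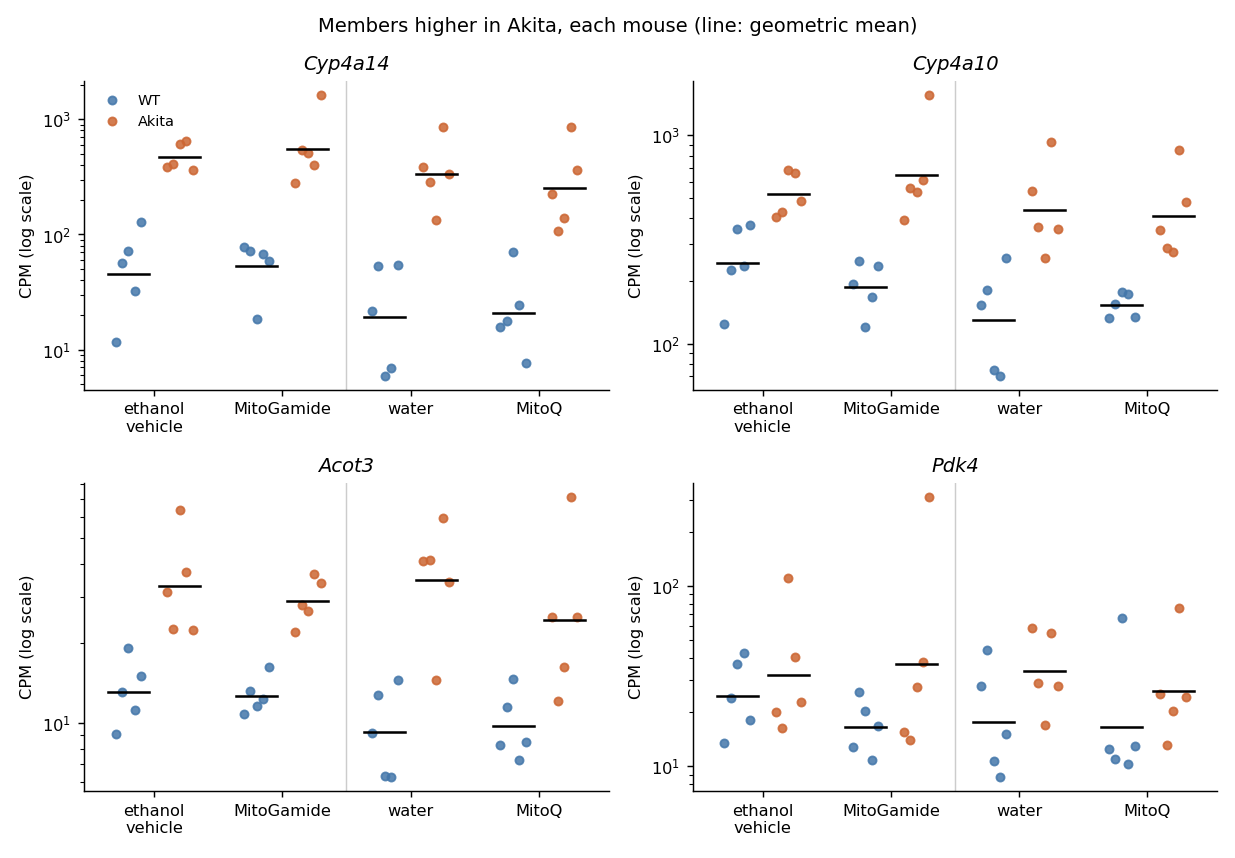
CPM on a log scale of Cyp4a14, Cyp4a10, Acot3 and Pdk4 in each of 40 mice, by treatment and genotype, with the geometric mean of 5 mice as a line. Cyp4a14 and Cyp4a10 separate the genotypes within each treatment, whereas Pdk4 overlaps throughout and is highest in Akita mouse 5 on MitoGamide.

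Acot1, the cytosolic member of the cluster, rose by 0.74 on the log2 scale (SE 0.140, edgeR adjusted p = 1.02e-04). Acot1 measured 37.9, 36.1, 67.7, 40.04 and 42.5 CPM in WT mice on ethanol and 47.5, 45.1, 83.05, 68.4 and 58.3 CPM in Akita mice. With MitoGamide Acot1 measured 26.5, 39.1, 19.3, 32.1 and 45.2 CPM in WT and 35.8, 50.04, 52.4, 74.7 and 104 CPM in Akita mice. The genotypes overlapped in both of these treatments. On water Acot1 measured 40.6, 28.2, 19.3, 22.8 and 51.4 CPM in WT and 70.6, 48.7, 35.1, 83.99 and 43.4 CPM in Akita mice. With MitoQ Acot1 measured 32.7, 42.2, 18.2, 30.7 and 29.7 CPM in WT and 44.3, 45.5, 44.1, 70.9 and 62.1 CPM in Akita mice, and only there did the genotypes not overlap. By treatment Acot1 was called on MitoGamide, at a log2 fold change of 0.99, and this call was kept in 5 of 10 fits without 1 mouse. The other treatments gave 0.44, 0.80 and 0.79 for ethanol, water and MitoQ.

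Acot2, the mitochondrial thioesterase, rose by 0.59 on the log2 scale (SE 0.106, edgeR adjusted p = 4.62e-05). Acot2 measured 22.4, 23.9, 42.2, 27.5 and 27.9 CPM in WT mice on ethanol and 35.9, 32.9, 46.5, 47.8 and 34.7 CPM in Akita mice. With MitoGamide Acot2 measured 19.7, 20.9, 20.004, 20.8 and 28.2 CPM in WT and 33.8, 28.4, 33.5, 39.2 and 55.7 CPM in Akita mice, a separation without overlap. On water Acot2 measured 22.7, 32.5, 16.3, 22.2 and 31.96 CPM in WT and 41.98, 42.8, 24.5, 41.6 and 36.3 CPM in Akita mice. The level with MitoQ was 20.8, 30.4, 25.3, 16.5 and 20.1 CPM in WT and 30.3, 25.02, 26.4, 51.5 and 31.97 CPM in Akita mice, with overlap as on ethanol and on water. Acot4 was not called, with a log2 fold change of 0.19 (edgeR adjusted p = 0.0757).

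Vnn1, a pantetheinase that releases cysteamine and pantothenate, rose by 0.73 on the log2 scale (SE 0.120, edgeR adjusted p = 1.38e-05). Vnn1 measured 55.7, 59.1, 117, 94.8 and 69.8 CPM in WT mice on ethanol and 103, 90.2, 105, 103 and 101 CPM in Akita mice. With MitoGamide Vnn1 measured 61.1, 68.4, 50.8, 51.6 and 72.8 CPM in WT and 91.7, 119, 121, 113 and 152 CPM in Akita mice. On ethanol WT mouse 3 lay above all 5 Akita mice, whereas with MitoGamide the genotypes did not overlap. On water Vnn1 measured 45.9, 46.8, 22.2, 26.5 and 71.01 CPM in WT and 90.6, 46.7, 51.3, 113 and 61.8 CPM in Akita mice. With MitoQ Vnn1 measured 34.7, 56.4, 43.5, 40.8 and 37.3 CPM in WT and 85.4, 61.1, 56.8, 90.1 and 86.5 CPM in Akita mice, where the lowest Akita mouse was just above the highest WT mouse. Vnn1 was called by treatment on MitoGamide, with a log2 fold change of 1.001 (SE 0.137, edgeR adjusted p = 0.00121).

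In mitochondrial beta-oxidation, 3 of 11 members rose, 1 fell and 7 were not called, beside 10.9% higher and 11.9% lower of all genes. Acaa2, the mitochondrial 3-ketoacyl-CoA thiolase of the last step, rose most, by 0.68 on the log2 scale (SE 0.147, edgeR adjusted p = 5.88e-04). Acaa2 measured 113, 185, 183, 173 and 202 CPM in WT mice on ethanol and 209.7, 216, 264, 202 and 209 CPM in Akita mice. With MitoGamide Acaa2 measured 96.9, 119, 127, 141 and 184 CPM in WT and 233, 181, 191, 188 and 362 CPM in Akita mice. The genotypes met at the edge of their ranges in both treatments. On water Acaa2 measured 134, 141, 51.1, 79.4 and 193 CPM in WT and 299, 144, 100.2, 309.8 and 127 CPM in Akita mice. With MitoQ Acaa2 measured 80.6, 129, 67.5, 116 and 79.8 CPM in WT and 207, 113, 128, 255 and 153 CPM in Akita mice, again with overlap. Acaa2 was called by treatment on MitoGamide, at 0.81, and its log2 fold changes on ethanol, water and MitoQ were 0.38, 0.72 and 0.85.

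The other members that rose were Eci1, an enoyl-CoA isomerase for unsaturated chains, with a log2 fold change of 0.47 (edgeR adjusted p = 0.00178), and Hadha, the alpha subunit of the trifunctional protein, with 0.35 (edgeR adjusted p = 0.00424). Hadhb, the beta subunit of the same protein, stood at 0.26 (edgeR adjusted p = 0.101). Acads, the dehydrogenase of short chains, fell by a log2 fold change of -0.31 (SE 0.0687, edgeR adjusted p = 6.50e-04). The dehydrogenases of very long, long and medium chains, Acadvl, Acadl and Acadm, had values of 0.065, 0.026 and -0.13, with 95% intervals of -0.13 to 0.26, -0.17 to 0.22 and -0.35 to 0.10. Hadh and Etfdh, which hands electrons from the dehydrogenases to ubiquinone, stood at 0.046 and 0.032, and Decr1, a dienoyl-CoA reductase, at 0.28 (edgeR adjusted p = 0.104).

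In the carnitine shuttle, Cpt1b rose by 0.51 on the log2 scale (edgeR adjusted p = 6.17e-05), Slc25a20, the carnitine-acylcarnitine carrier, by 0.45 (edgeR adjusted p = 0.00152), and Acsl1, which activates long-chain fatty acids, by 0.39 (edgeR adjusted p = 0.0460). Cpt1a, the main carnitine palmitoyltransferase of kidney, was not called (0.17, edgeR adjusted p = 0.165), nor was Cpt2 of the inner membrane (0.25, edgeR adjusted p = 0.0796). Crot, which makes carnitine esters of medium chains in peroxisomes, fell by a log2 fold change of -0.41 (edgeR adjusted p = 0.00550). Acsl1 was called in 24 of 40 fits without 1 mouse. Its lowest value was found without Akita mouse 5 on MitoGamide, where the log2 fold change was 0.28 (edgeR adjusted p = 0.105).

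Of the 6 peroxisomal members, only Decr2, a dienoyl-CoA reductase, was called, beside 10.9% higher and 11.9% lower of all genes. It rose by a log2 fold change of 0.42 (SE 0.106, edgeR adjusted p = 0.00271). Ehhadh, often used as a marker of PPAR-alpha activation in liver, stood at 0.033 with a 95% interval of -0.21 to 0.27. The thiolases Acaa1a and Acaa1b were at 0.07 and 0.15, and the isomerases Ech1 and Eci2 at 0.23 and 0.17.

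In uptake and storage, Cd36, the fatty acid translocase, fell by a log2 fold change of -1.11 (SE 0.166, edgeR adjusted p = 2.77e-06), 2.16-fold lower in Akita mice. Cd36 measured 390.4, 299, 317, 308 and 296 CPM in WT mice on ethanol and 151, 118, 107, 159.6 and 157 CPM in Akita mice. With MitoGamide Cd36 measured 353, 306, 354, 307 and 399 CPM in WT and 198, 211, 136, 265 and 86.95 CPM in Akita mice. Every Akita mouse of the ethanol arm was below every WT mouse, and mouse 5 on MitoGamide was lowest. On water Cd36 measured 346, 103, 123, 154 and 296 CPM in WT and 94.6, 39.2, 113, 65.1 and 82.4 CPM in Akita mice. With MitoQ Cd36 measured 209.5, 273, 128, 311 and 265 CPM in WT and 206, 153, 106, 34.7 and 133 CPM in Akita mice, and in the water arm the genotypes overlapped. Cd36 was called on ethanol (-1.20, edgeR adjusted p = 3.84e-05) and on MitoGamide (-0.90, edgeR adjusted p = 0.0278), and its log2 fold changes on water and MitoQ were -1.38 and -0.91.

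Plin2, a coat protein of lipid droplets, and Angptl4, a secreted inhibitor of lipoprotein lipase, were not called, with log2 fold changes of 0.26 (edgeR adjusted p = 0.0501) and 0.50 (edgeR adjusted p = 0.109). Fabp1 was below the count minimum in the averaged comparison. It measured 7.31 CPM in WT mouse 1 on water, the library with hepatocyte markers, and at most 0.978 CPM in the other 39 libraries.

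Ketone body use was the role in which all 3 enzymes fell, where 11.9% of all genes were called lower. Bdh1, which oxidises beta-hydroxybutyrate to acetoacetate, fell by a log2 fold change of -1.08 (SE 0.134, edgeR adjusted p = 8.25e-08), 2.11-fold lower. Bdh1 measured 98.8, 76.6, 64.8, 69.6 and 54.3 CPM in WT mice on ethanol and 36.7, 30.2, 35.2, 37.1 and 40.3 CPM in Akita mice. With MitoGamide Bdh1 measured 63.4, 72.3, 68.7, 56.8 and 68.3 CPM in WT and 24.7, 40.97, 34.6, 49.9 and 15.6 CPM in Akita mice. On water Bdh1 measured 98.2, 44.3, 50.02, 55.2 and 83.9 CPM in WT and 26.4, 26.9, 37.2, 20.9 and 27.3 CPM in Akita mice. The genotypes did not overlap in these 3 treatments, and Bdh1 was called in each, with log2 fold changes of -1.001, -0.95 and -1.27. With each mouse left out in turn, the call was kept in 10 of 10 fits on ethanol, 8 on MitoGamide and 3 on water. With MitoQ Bdh1 measured 79.7, 74.8, 30.9, 72.8 and 83.1 CPM in WT and 31.7, 43.2, 39.04, 12.9 and 38.1 CPM in Akita mice, and the log2 fold change of -1.06 was not called (edgeR adjusted p = 0.239). WT mouse 3, whose 10 most abundant genes held 72.5% of its counts, was the WT mouse that overlapped.

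Oxct1, the transferase that activates acetoacetate and the step missing from liver, fell by a log2 fold change of -0.56 (SE 0.127, edgeR adjusted p = 9.75e-04). Oxct1 measured 835, 931, 811, 824 and 761 CPM in WT mice on ethanol and 534, 521, 556, 458 and 526 CPM in Akita mice. With MitoGamide Oxct1 measured 747, 865, 863, 689.9 and 938 CPM in WT and 479, 510.0, 587, 569 and 527 CPM in Akita mice. Both treatments separated the genotypes and were called, with log2 fold changes of -0.66 and -0.59. On water Oxct1 measured 692, 402, 288, 424 and 924 CPM in WT and 634, 232, 328, 464 and 252 CPM in Akita mice. With MitoQ Oxct1 measured 527, 669, 247, 747 and 645 CPM in WT and 572, 448, 372, 279.8 and 423 CPM in Akita mice. The WT mice of the water arm spread widely and overlapped the Akita mice, and the log2 fold changes of -0.52 and -0.44 were not called.

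Acat1, the acetoacetyl-CoA thiolase of the last step, fell by a log2 fold change of -0.59 (SE 0.120, edgeR adjusted p = 2.83e-04). Acat1 measured 505, 447, 424, 422 and 407 CPM in WT mice on ethanol and 275, 261, 279, 252 and 277 CPM in Akita mice. With MitoGamide Acat1 measured 435, 458, 451, 437 and 441 CPM in WT and 316, 299, 263, 358 and 268 CPM in Akita mice, so that the genotypes stood apart in the ethanol arm. On water Acat1 measured 380.2, 201, 153, 248 and 443 CPM in WT and 270.2, 109, 185, 233 and 142 CPM in Akita mice. With MitoQ Acat1 measured 305, 405, 146, 384 and 353 CPM in WT and 353, 226, 185, 152 and 231 CPM in Akita mice. As for Oxct1, the calls were on ethanol (-0.70) and MitoGamide (-0.53) and the water arm overlapped.

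**Figure D3:**
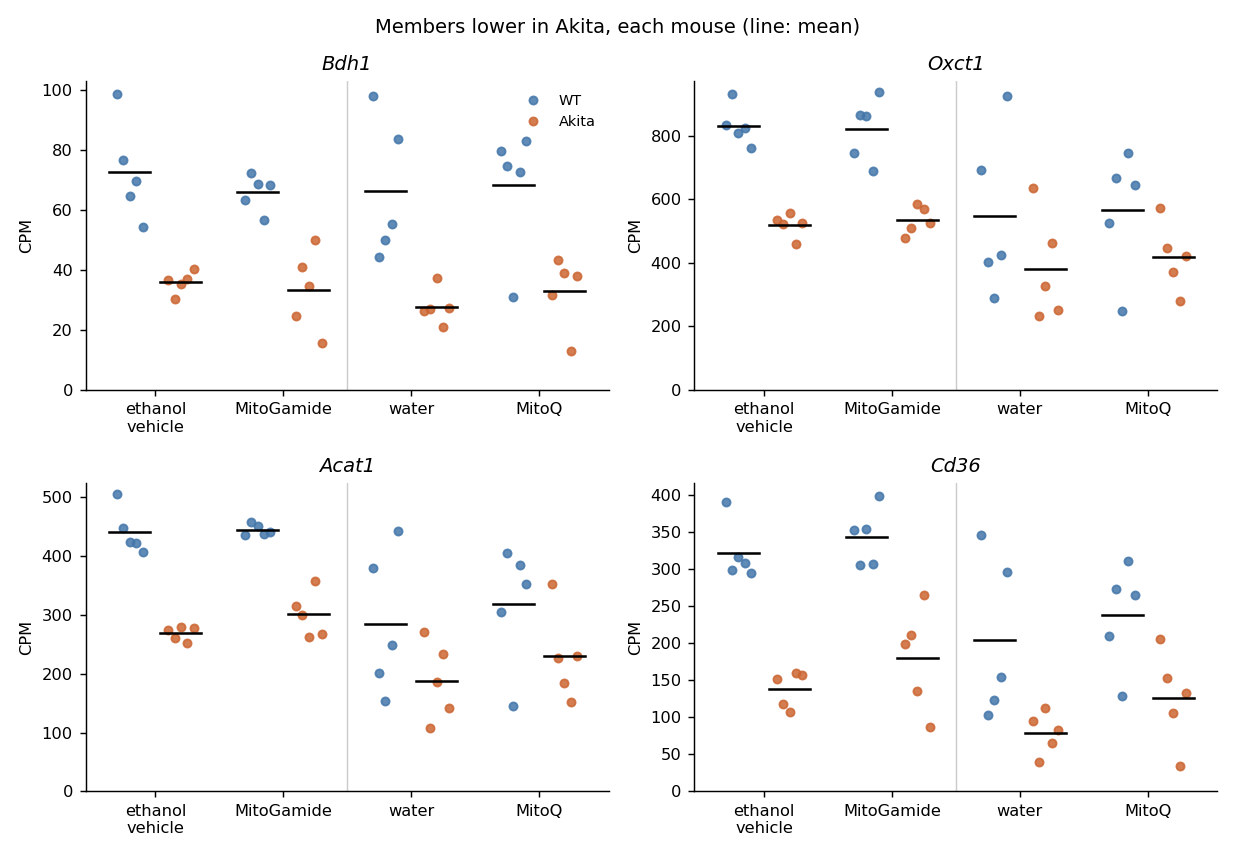
CPM of Bdh1, Oxct1, Acat1 and Cd36 in each of 40 mice, by treatment and genotype, with the mean of 5 mice as a line and the axis from 0. The 4 genes separate WT from Akita mice in the ethanol arm, and the water arm spreads more.

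Pdk4, the kinase that inactivates pyruvate dehydrogenase, rose in the averaged comparison by a log2 fold change of 1.06 (SE 0.342, edgeR adjusted p = 0.0202). Pdk4 measured 13.5, 24.1, 37.2, 42.4 and 18.02 CPM in WT mice on ethanol and 19.998, 16.3, 111, 40.5 and 22.9 CPM in Akita mice. With MitoGamide Pdk4 measured 12.8, 25.98, 20.3, 10.9 and 16.7 CPM in WT and 15.4, 13.9, 27.6, 37.9 and 314 CPM in Akita mice. Single mice, Akita 3 on ethanol and Akita 5 on MitoGamide, were far above the rest, and the genotypes overlapped. On water Pdk4 measured 27.96, 44.4, 10.8, 8.69 and 15.2 CPM in WT and 58.4, 29.1, 17.05, 55.3 and 27.99 CPM in Akita mice. With MitoQ Pdk4 measured 12.4, 10.98, 67.04, 10.3 and 12.96 CPM in WT and 25.2, 13.1, 20.2, 75.5 and 24.3 CPM in Akita mice. No treatment alone gave a call for Pdk4, and without Akita mouse 5 on MitoGamide the averaged log2 fold change was 0.64 (SE 0.277, edgeR adjusted p = 0.0970). Without the 3 libraries that stood apart, which were this one, Akita mouse 4 on MitoQ and WT mouse 1 on water, it was 0.51 (edgeR adjusted p = 0.195).

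Some mice that were high in Pdk4 were also high in other members, and others were not. WT mouse 4 on ethanol had the highest Pdk4 of its group (42.4 CPM), while Cyp4a14 and Cyp4a10 were highest in WT mouse 5. WT mouse 3 on MitoQ had the highest Pdk4, Cyp4a14, Cyp4a10, Angptl4 and Acot3 of its group. It also had the lowest Cd36, Bdh1 and Plin2 (25.1 CPM for Plin2). Akita mouse 5 on MitoGamide had the highest Cyp4a14, Cyp4a10, Pdk4, Angptl4, Acsl1 and Plin2 of its group and the lowest Cd36 and Bdh1. Akita mouse 4 on MitoQ had the highest level of these 6 genes and of Acot3, and the lowest Cd36 and Bdh1, of its group. The 40 members summed to 11459 CPM in Akita mouse 5 on MitoGamide, against 2804 to 7867 CPM in WT mice. The top 10 genes of that library held 37.8% of its counts and its proximal tubule markers summed to 22979 CPM, both within the range of the other Akita mice. Genes of the mitochondrial genome held 35.4% of its counts, the highest share in the ethanol arm (next 30.5%). Its TMM factor of 0.853 was the lowest there (next 0.927). Its podocyte markers (474 CPM), distal tubule and collecting duct markers (2757 CPM) and endothelial markers (531 CPM) had the highest sums of all 40 libraries, where the next library reached 410.1, 2285 and 483 CPM. The part of these cell types, or of the mitochondrial share, in the values of this mouse was not tested. White adipocyte markers summed to 35.4 CPM there, within 13.9 to 45.9 CPM over all Akita mice.

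Set side by side, the 4 treatments gave different numbers of calls. On ethanol 7 members were higher and 6 lower of 39, where 16.4% of all genes were called, 8.18% higher and 8.22% lower. On MitoGamide 15 were higher and 4 lower of 39, where 14.3% of all genes were called, 7.71% higher and 6.6% lower. On water 2 were higher and 1 lower of 40, where 0.552% of all genes were called, 0.186% higher and 0.366% lower. On MitoQ 2 were higher and 0 lower of 39, where 0.557% of all genes were called, 0.265% higher and 0.292% lower. At an unadjusted p under 0.05, 11 members were higher and 2 lower on MitoQ, where 9.06% of all genes passed, and DESeq2 called 6 higher and 0 lower. The median member had a log2 fold change of 0.14 on ethanol, 0.40 on MitoGamide, 0.25 on water and 0.28 on MitoQ. Without overlap of the genotypes, 3 members were above and 5 below on ethanol (13% of all genes in either direction), 14 above and 4 below on MitoGamide (12.4%), 2 above and 1 below on water (2.53%), and 4 above and 0 below on MitoQ (2.93%). Under no treatment were 17 members called, Fabp1 included, and no member was called higher under 1 treatment and lower under another.

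The difference in the Akita effect between the ethanol and water vehicles was called for 0 of 39 members and 0% of all genes. At an unadjusted p under 0.05, 0 members passed, where 4.27% of all genes did, and DESeq2 called 0. For Cyp4a14 this difference was -0.79 on the log2 scale, with a 95% interval of -2.52 to 0.95, and for Bdh1 it was 0.24, with an interval of -0.50 to 0.97. On ethanol the count of higher members depended on WT mouse 3, without which 13 were called. On water no member was called higher without 8 of the 10 mice, left out in turn. On MitoGamide, 2 instead of 4 members were called lower without WT mouse 2 or WT mouse 3.

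**Figure D4:**
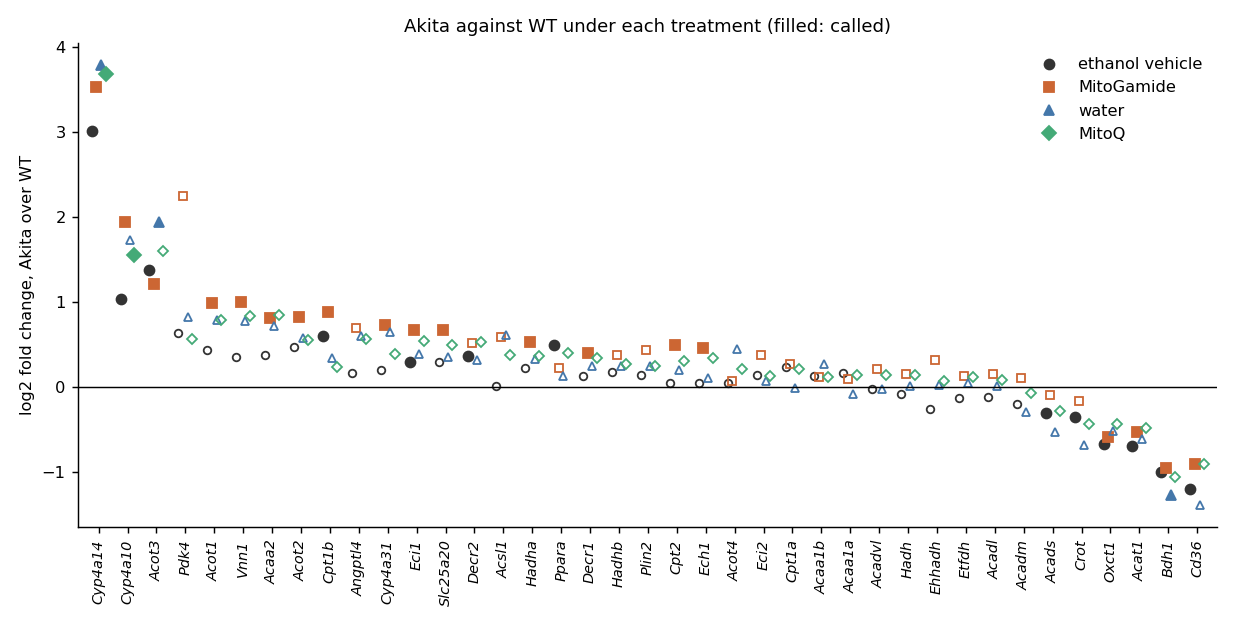
Log2 fold change between Akita and WT mice for 39 members under ethanol vehicle, MitoGamide, water and MitoQ, in the order of the averaged comparison, with filled marks for called members. The 4 marks of Cyp4a14, Cyp4a10 and Acot3 all lie above 1, and those of Bdh1 and Cd36 all lie below 0.

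The next question was whether MitoGamide altered these genes against its own vehicle. In Akita mice 0 of 39 members were called, where 1.26% of all genes were, 0.833% higher and 0.422% lower. At an unadjusted p under 0.05, 5 members were higher and 3 lower of 39, where 20.9% of all genes passed, and DESeq2 called 1, Acaa1a, lower. Cyp4a14 differed by 0.47 on the log2 scale, with a 95% interval of -0.30 to 1.24, and Cyp4a10 by 0.45, with -0.18 to 1.08. Without Akita mouse 5 on MitoGamide these differences were -0.14 and -0.007. Bdh1 differed by -0.095, with an interval of -0.58 to 0.39, Oxct1 by 0.05, with -0.13 to 0.22, and Cd36 by 0.39, with -0.10 to 0.88. Ppara was lower on MitoGamide by value, -0.34 on the log2 scale, and did not pass the test (edgeR adjusted p = 0.121).

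Acaa1a, a peroxisomal thiolase, was closest to a call in Akita mice and is named here after its values were seen. Acaa1a measured 86.4, 83.3, 80.3, 67.4 and 73.9 CPM in Akita mice on ethanol and 58.6, 51.7, 64.6, 61.7 and 65.4 CPM on MitoGamide. In WT mice it measured 64.8, 71.6, 76.98, 72.7 and 64.99 CPM on ethanol and 42.2, 63.7, 64.3, 54.7 and 63.7 CPM on MitoGamide. In both genotypes each mouse on MitoGamide lay below each mouse on the vehicle, and it was the 1 member below without overlap in either. The log2 fold change was -0.37 in Akita mice (SE 0.0876, edgeR adjusted p = 0.0593) and -0.29 in WT mice (SE 0.107, edgeR adjusted p = 0.370). Without Akita mouse 5 on MitoGamide the Akita value became -0.39 and was called (edgeR adjusted p = 0.0324). Etfdh was the 1 member above without overlap in Akita mice, from 139 to 147 CPM on ethanol and from 152 to 198 CPM on MitoGamide, with a log2 fold change of 0.22 that was not called (edgeR adjusted p = 0.134). Of all genes, 7.5% did not overlap between MitoGamide and ethanol in Akita mice and 2.28% in WT mice.

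In WT mice MitoGamide gave 0 calls among 39 members and among all genes (0%). At an unadjusted p under 0.05, 11 members were lower and 0 higher of 39, where 10.6% of all genes passed, DESeq2 called 0, and the median member stood at -0.15. Cyp4a14 differed by -0.039, with a 95% interval of -0.99 to 0.91, and Cyp4a10 by -0.45, with -0.96 to 0.064. The difference of the MitoGamide effect between Akita and WT mice was called for 0 of 39 members (0% of all genes). At an unadjusted p under 0.05, 0 members passed, where 3.66% of all genes did, and DESeq2 called 0. For Cyp4a14 this difference was 0.50, with an interval of -1.23 to 2.23.

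MitoQ gave 0 calls against water in Akita mice, among 39 members and among all genes (0%), and 0 members separated the groups without overlap, as 0.308% of all genes did. At an unadjusted p under 0.05, 1 member was lower, and DESeq2 called 0. Cyp4a14 differed by -0.24 on the log2 scale, with a 95% interval of -1.35 to 0.88, Cd36 by 0.69, with -0.076 to 1.46, and Bdh1 by 0.26, with -0.27 to 0.78. In WT mice 0 of 40 members and 0% of all genes were called, and 0 members and 0.962% of all genes separated the groups. At an unadjusted p under 0.05, 2 members were lower, where 3.22% of all genes passed, and DESeq2 called 0. Cyp4a14 differed there by -0.11, with an interval of -1.47 to 1.25. The difference between the genotypes in the MitoQ effect was called for 0 of 39 members (0% of all genes). At an unadjusted p under 0.05, 0 members passed, where 2.53% of all genes did, and DESeq2 called 0. MitoGamide and MitoQ were given in different vehicles and the dose of MitoQ was not stated, so their values stand side by side and were not compared.

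The vehicles themselves were compared over both genotypes, 10 mice on ethanol against 10 on water. With ethanol 23 members were higher and 1 lower of 39, where 48.8% of all genes were called, 21.8% higher and 27% lower. The 1 lower member was Cpt1b, with a log2 fold change of -0.31 (edgeR adjusted p = 0.0464). It was called in 20 of the 40 fits without 1 mouse and neither by DESeq2 nor with RLE normalization. The highest Cpt1b of the WT mice, 22.9 CPM, was in mouse 1 on water, whose brown adipocyte markers (21.6 CPM) and muscle markers (8.60 CPM) had the highest sums of all libraries, and their part was not tested. The median log2 fold change was 0.39 over the members, against -0.043 over all genes. Cpt2, Ppara, Etfdh, Vnn1, Ech1 and Cpt1a had the smallest p-values. The arms were separate sets of libraries, so vehicle and arm cannot be told apart.

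Cpt2 measured 94.2, 89.5, 153, 126 and 105 CPM in WT and 114, 106, 127, 118 and 117 CPM in Akita mice on ethanol. On water Cpt2 measured 89.3, 61.7, 38.7, 50.8 and 103 CPM in WT and 106, 56.1, 64.1, 106 and 62.6 CPM in Akita mice. Its log2 fold change was 0.64 (SE 0.150, edgeR adjusted p = 0.00230), and WT mice 1 and 5 and Akita mice 1 and 4 on water lay near the mice on ethanol. With MitoGamide Cpt2 measured 107, 106, 92.5, 92.1 and 111 CPM in WT and 118, 117, 129, 149 and 192 CPM in Akita mice. With MitoQ Cpt2 measured 63.3, 97.8, 46.5, 73.1 and 72.4 CPM in WT and 94.3, 75.8, 66.8, 96.5 and 105 CPM in Akita mice.

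Etfdh showed the same mice high on water. Etfdh measured 139, 160.3, 169, 165 and 159.8 CPM in WT and 147, 139, 144, 143 and 145 CPM in Akita mice on ethanol. On water Etfdh measured 126, 75.9, 57.2, 84.3 and 152 CPM in WT and 138, 65.5, 87.2, 145 and 77.6 CPM in Akita mice. Its log2 fold change was 0.58 (SE 0.142, edgeR adjusted p = 0.00300). With MitoGamide Etfdh measured 150.0, 156, 148, 148 and 171 CPM in WT and 159, 152, 157, 165 and 198 CPM in Akita mice. With MitoQ Etfdh measured 96.1, 139, 62.3, 127 and 113 CPM in WT and 147, 109.9, 93.7, 111 and 121 CPM in Akita mice, a wider spread than with MitoGamide.

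Ech1, a dienoyl-CoA isomerase, measured 203, 233, 268, 231 and 214 CPM in WT and 223, 221, 254, 252 and 231 CPM in Akita mice on ethanol. On water Ech1 measured 239.8, 136, 88.4, 119 and 216 CPM in WT and 227, 132, 134, 219 and 152 CPM in Akita mice. The log2 fold change of Ech1 was 0.48 (SE 0.132, edgeR adjusted p = 0.00524), with overlap of the vehicles. With MitoGamide Ech1 measured 170.1, 195, 194, 200.1 and 209.9 CPM in WT and 246, 232, 239, 273 and 319 CPM in Akita mice. With MitoQ Ech1 measured 134, 176, 105, 158 and 149 CPM in WT and 230.0, 154, 145, 197 and 189 CPM in Akita mice.

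Cpt1a measured 325, 335, 493, 415 and 299 CPM in WT and 476, 439, 447, 410.0 and 411 CPM in Akita mice on ethanol. On water Cpt1a measured 346, 322, 194, 265 and 370.3 CPM in WT and 370.0, 225, 258, 380.0 and 257 CPM in Akita mice. Its log2 fold change was 0.44 (SE 0.122, edgeR adjusted p = 0.00610), again with overlap. With MitoGamide Cpt1a measured 398, 382, 391, 319.7 and 311 CPM in WT and 355, 374, 407, 393 and 602 CPM in Akita mice. With MitoQ Cpt1a measured 273, 383, 238, 289 and 292 CPM in WT and 391, 289, 278, 348 and 405 CPM in Akita mice. For Ppara and Vnn1 the log2 fold changes were 0.53 and 0.68.

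The calls between vehicles were not found without the libraries in which abundant genes held a high share. Of the 10 libraries above the 40% share, 3 were of WT and 3 of Akita mice on water, and without all 10 libraries 0 members were called in either direction, where 0.0911% of all genes were. At an unadjusted p under 0.05, 2 members were higher and 0 lower, and DESeq2 called 0. The median member then had a log2 fold change of 0.0084, and 20 of 39 values were positive instead of 38. These 10 libraries also had lower proximal tubule markers, 14386 to 22098 CPM in sum against 17226 to 34638 CPM in the other 30. For Ppara and Cpt1b the values without these libraries, 0.44 (SE 0.121) and -0.27 (SE 0.163), lay near those from all libraries, with 4 mice on water left. Whether the share of abundant genes or the markers have a part in the vehicle values was not tested. The averaged comparison of Akita with WT mice gave 21 higher and 6 lower members without the same 10 libraries, where 26.5% of all genes were called.

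**Figure D5:**
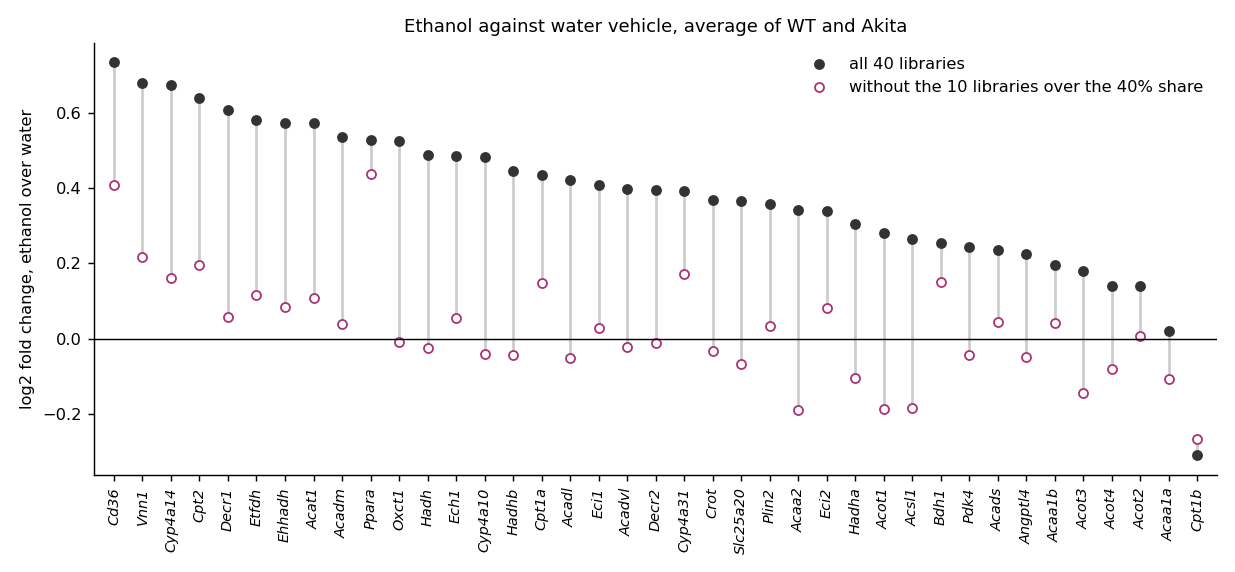
Log2 fold change between ethanol and water vehicle for 39 members, averaged over WT and Akita mice, from all 40 libraries (filled) and without the 10 libraries whose 10 most abundant genes exceed 40% of the counts (open). The open marks lie around 0, with Ppara and Cd36 among the highest.

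Genes of the same pathway outside the 40 were counted in the averaged comparison, where 10.9% of all genes tested were called higher and 11.9% lower. Among 48 tested genes of beta-oxidation and fatty acid transport, 9 were higher and 11 lower in Akita mice, with a median log2 fold change of 0.025. The 3 with the smallest p all fell. They were Amacr, a racemase of branched chains (-1.02, edgeR adjusted p = 1.64e-07), Acsm3, a medium-chain acyl-CoA synthetase (-1.92, edgeR adjusted p = 2.24e-07), and Slc27a2, a transporter and synthetase of very long chains (-0.47, edgeR adjusted p = 1.25e-06). Among 25 tested further targets of PPAR-alpha, 12 were higher and 5 lower, with a median of 0.33. Mgll, the monoglyceride lipase, rose from 31.4 ± 6.51 to 54.3 ± 7.22 CPM (SD, n = 20, log2 fold change 0.79). Cyp4a12a, a Cyp4a gene of male mice, fell from 129 ± 50.2 to 31.5 ± 18.7 CPM (log2 fold change -2.15). Cyp4a32, which shares sequence with Cyp4a10, fell by a log2 fold change of -0.92 at a level of 0.917 ± 0.379 CPM in Akita mice.

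Of 15 tested partners and regulators of PPAR-alpha, 1 was higher and 4 lower, beside 10.9% and 11.9% of all genes. Ppard, the delta form of the receptor, fell by a log2 fold change of -1.22 (edgeR adjusted p = 7.82e-08), and Ncor1, a corepressor, by -0.31 (edgeR adjusted p = 6.61e-07). Ppargc1a, the coactivator PGC-1alpha, rose by 0.26 (edgeR adjusted p = 9.31e-04).

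Markers of cell types moved as well, to be read beside the same 10.9% higher and 11.9% lower of all genes. Of 17 proximal tubule markers 2 were higher and 6 lower in Akita mice, and their sum was 15781 to 34638 CPM in WT and 14386 to 26802 CPM in Akita mice. The 3 with the smallest p were Slc7a13 (-1.61), Slc22a30 (-1.23) and Pck1, a gluconeogenic enzyme that rose (1.15). Distal tubule and collecting duct markers gave 4 higher and 0 lower of 10, led by Aqp2 (0.98), Calb1 (1.002) and Scnn1b (0.34). Immune cell markers gave 0 higher and 3 lower of 4, namely Csf1r (-0.71), Ptprc (-0.55) and Adgre1 (-0.43). Podocyte markers gave 3 higher of 5, endothelial markers 2 higher and 1 lower of 5, fibroblast markers 2 higher of 5, and thick ascending limb markers 1 lower of 4. Of the types outside the nephron, 1 of 6 tested hepatocyte markers was lower, 1 of 2 tested white adipocyte markers, Fabp4, was higher, and 0 of 5 erythrocyte, 0 of 1 brown adipocyte and 0 of 1 adrenal cortex markers were called, while no skeletal muscle marker was tested. Muscle markers, whose tissue uses Cpt1b, summed to at most 8.60 CPM in any library. The part of these cell types in the results above was not tested.

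The promoters of the members were searched for letters of the PPAR response element, as far as RefSeq promoters (GRCm38.p6, 250 bases before to 50 after the start) matched, which was the case for 31 of 40 genes with 34 promoters. Cyp4a10, Cyp4a14, Vnn1, Acaa2, Acat1, Angptl4, Cpt1b, Cyp4a31 and Decr1 had none. The direct repeat of AGGNCA with 1 base between its copies, on either strand, occurred in the promoter of Fabp1 and in 0.381% of all 32851 promoters. The core AGGTCA, which is contained in some of these repeats, occurred in 26.5% of the member promoters and in 16.3% of all promoters. Members with it were Acadm, Acadvl, Acot3, Acot4, Cd36, Cpt1a, Fabp1 and Plin2, of which Acot3 rose, Cd36 fell and the others were not called or not tested. Cd36 is shown as the member that fell most, by the 250 bases before its RefSeq start, at chr5:17835897-17836146 on the minus strand. This stretch lies inside the GENCODE span of the gene, chr5:17781690-17888801, and which start is used in kidney was not tested. The core, read on the opposite strand, is in capitals.
Cd36: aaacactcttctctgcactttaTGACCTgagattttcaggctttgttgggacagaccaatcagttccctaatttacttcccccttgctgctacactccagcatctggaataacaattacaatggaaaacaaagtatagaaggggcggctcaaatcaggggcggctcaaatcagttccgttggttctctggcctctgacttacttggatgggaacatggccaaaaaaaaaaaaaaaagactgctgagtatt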

How the data were processed

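Libraries were made from total RNA of the renal cortex of single mice after removal of ribosomal RNA, with a directional kit, and read from 1 end. The authors trimmed the reads, mapped them to GENCODE mouse transcripts with kallisto 0.46.1 and summed transcripts to genes in R 4.0.2. The deposited values are estimated counts per gene, given as whole numbers without scaling, filtering or pooling (build GRCm38 per the labels). As kallisto divides reads that match several transcripts, changes of close copies can be shared between them.

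Here edgeR 4.0.16 in R 4.3.3 was run with TMM normalization and the quasi-likelihood test. Genes averaging under 10 counts across the libraries compared were left out, and a Benjamini-Hochberg adjusted p below 0.05 over all genes tested was a call. Comparisons of 2 groups used their own 10 libraries. The averages over treatments or genotypes and the differences between effects came from a fit of all 40 libraries with 8 group means. CPM used TMM factors over the 40 libraries, and intervals are 95% intervals from the SE. Total counts were 9106654 to 24321424 per library, and missing a call does not show that a gene stayed the same. No 2 libraries held identical counts.

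The members and the lists of further genes and markers were chosen with earlier results of these data known. Values in each mouse are given for Ppara, for the 12 members with the largest log2 fold change among those called in the averaged comparison, and for the 6 members with the smallest p among those called between vehicles. From each further list, up to 3 called genes with the smallest p are named, without the marker lists of podocytes, endothelium, fibroblasts, thick ascending limb and hepatocytes, for which counts are given. Both designs were tried on simulated data in which 200 genes had a known change. The changed genes were drawn from the more abundant genes only, so recovery of tested genes near the count minimum was not measured. For Akita against WT mice on ethanol, 98% were recovered at a 2-fold change and 9.68% of calls were false (17553 genes), and for the average, 91.5% were recovered at a 1.5-fold change and 3.68% of calls were false (17685 genes).

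Alternatives were DESeq2 1.42.0, RLE normalization, the filter removed or raised to 10 counts in each library, a single fit of all 40 libraries, the replicate number as a block, each library and each treatment left out, and, added after the data were examined, leaving out the libraries that stood apart. Positions and exon lengths came from GENCODE for 99.5% of the gene identifiers, and the words of 31 bases that genes share were counted in its transcripts, which are of an earlier release than those the reads were mapped to. Promoters came from RefSeq.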

Additional observations from a re-analysis of the deposited data

Results flagged for a closer look

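For 17 genes with values in each mouse, the 8 groups of 5 mice were examined for 1 mouse apart from the other 4. This gave 136 sets of values, of which 19 had such a mouse. Chance gives about 1 in 20 for independent, normally distributed values. The sets share the same mice and their distribution was not checked, so that rate is only a rough guide. Akita mouse 5 on MitoGamide was the mouse apart in 6 of the 19 sets. It was highest for Cyp4a14 (1625 CPM, the others at most 537), Cyp4a10 (1563 CPM, at most 609), Pdk4 (314 CPM, at most 37.9), Acaa2 (362 CPM, at most 233), Etfdh (198 CPM, at most 165) and Cpt1a (602 CPM, at most 407). Akita mouse 4 on MitoQ was highest for Acot3 (71.4 CPM, at most 25.2), Pdk4 (75.5 CPM, at most 25.2) and Acot2 (51.5 CPM, at most 32.0).

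WT mouse 3 on MitoQ was highest for Cyp4a14 (70.5 CPM, at most 24.6) and Pdk4 (67.0 CPM, at most 13.0) and lowest for Bdh1 (30.9 CPM, the others at least 72.8). This is the library in which 10 genes held 72.5% of the counts, and the part of that share in these values was not tested. Akita mouse 3 on ethanol was highest for Pdk4 (111 CPM, at most 40.5) and Acaa2 (264 CPM, at most 216).

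WT mouse 3 on ethanol was highest for Acot1 (67.7 CPM, at most 42.5) and Acot2 (42.2 CPM, at most 27.9). WT mouse 1 on ethanol was highest for Cd36 (390.4 CPM, at most 317), WT mouse 5 on MitoGamide for Acot2 (28.2 CPM, at most 20.9), and WT mouse 2 on water for Ppara (91.2 CPM, at most 54.7). No difference in effect between genotypes or vehicles was called for any member.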

How the results depend on the processing

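With 5 mice per group and totals from 9106654 counts, small changes of single members could not be shown. Counts of higher and lower members moved as follows. DESeq2 gave 2 lower on water, 6 higher on MitoQ and 1 lower with MitoGamide in Akita mice, and for ethanol against water 0 lower, as did RLE normalization. With at least 10 counts in every library, 1 member was lower with MitoGamide in Akita mice. All 40 libraries in 1 fit gave 2 higher and 2 lower on ethanol, 3 lower on water, 1 lower on MitoGamide and 1 lower on MitoQ. Whether replicate numbers pair mice is not given by the labels, and the correlations of same-numbered mice do not settle it. They ran from -0.53 to 0.56 for Akita against WT on water. For MitoQ against water in Akita mice they ran from -0.19 to 0.74, and in no comparison were all 5 above 0.1. With the replicate number as a block, 12 were higher on ethanol, 0 higher and 0 lower on water and 0 higher on MitoQ, so that Cyp4a14 was not called in either.

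Leaving out each mouse in turn gave 5 to 13 higher and 5 to 7 lower on ethanol, 0 to 2 higher and 0 to 1 lower on water, 11 to 18 higher and 2 to 4 lower on MitoGamide, 0 to 3 higher and 0 to 1 lower on MitoQ, and 14 to 23 higher and 6 lower each time in the average. It gave 15 to 26 higher, 15 without WT mouse 3 on water, and 0 to 1 lower for ethanol against water, where Cpt1b lost its call in 20 of 40 fits, and 0 to 1 lower with MitoGamide in Akita mice. On MitoQ no member was higher without Akita mouse 5 or WT mouse 1, 4 or 5, and 1 was lower without WT mouse 3. The cause of these moves was not tested.

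Without the 10 libraries over the 40% share, ethanol against water gave 0 higher and 0 lower members, and 20 of 39 values were positive instead of 38. Among members called from all libraries, Slc25a20 (-0.067), Acadvl (-0.023), Acadl (-0.053), Hadhb (-0.042), Hadh (-0.024), Decr2 (-0.012) and Oxct1 (-0.0098) turned negative. Members that had not been called turned as well, among them Acaa2 (-0.19), Acot1 (-0.19) and Acsl1 (-0.18). The averaged comparison of Akita with WT mice gave 13 to 19 higher and 5 to 6 lower members when 1 treatment was left out, and 15 higher and 6 lower without the 3 libraries that stood apart. Acsl1 was not called there (0.24, edgeR adjusted p = 0.157) or without the 10 libraries over the share (0.36, edgeR adjusted p = 0.0877).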

Other observations

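Further genes of lipid handling, chosen after their values were seen, rose in Akita mice in the averaged comparison. Slc16a6, a carrier of the monocarboxylate family, had a log2 fold change of 0.74 (SE 0.128, edgeR adjusted p = 3.16e-05), from 9.03 ± 2.37 to 15.1 ± 5.31 CPM (SD, n = 20). Pnpla2, the triglyceride lipase of lipid droplets, had 0.45 (edgeR adjusted p = 0.00559), Lpin1, a phosphatidate phosphatase, 0.42 (edgeR adjusted p = 7.62e-04), and Ucp2, an uncoupling protein, 0.63 (edgeR adjusted p = 3.12e-04). Aqp7, a glycerol channel of the proximal tubule, rose by 0.40 (edgeR adjusted p = 3.19e-05) and Gpd1, a glycerol phosphate dehydrogenase, by 0.35 (edgeR adjusted p = 0.00139).

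Acox2, the peroxisomal oxidase of branched chains, rose by a log2 fold change of 0.27 (edgeR adjusted p = 0.00348). Acacb, an acetyl-CoA carboxylase of the mitochondrial surface whose product inhibits the carnitine shuttle, rose by 0.47 (edgeR adjusted p = 2.10e-06), while Acaca, the cytosolic form, fell by a log2 fold change of -0.41 (edgeR adjusted p = 2.28e-04). Fabp3 and Fabp4, fatty acid binding proteins, rose by 0.70 and 0.64 (edgeR adjusted p = 1.60e-04 and 1.37e-05), and Fabp4 is also a marker of adipocytes and capillary endothelium.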
